A study of Mus musculus with 24 samples.

Results

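The samples described here are 8 RNA-seq libraries of mouse lens, 4 of epithelia and 4 of cortical fibers, out of 24 libraries in the series. They were chosen by their labels alone: all 8 came from C57BL/6 mice of genotype LEGSKO that had received buthionine sulfoximine (BSO), and they differ only in the tissue taken. In LEGSKO lenses Gclc is knocked out, which encodes the subunit of glutamate-cysteine ligase that carries the active site, and BSO inhibits the same enzyme. The epithelia therefore carry the same deletion and drug as the fibers, and the study's design text calls both severely glutathione deficient. The other 16 libraries are wild type (WT) and untreated LEGSKO epithelia and fibers, 4 of each, and are used only where the tissue difference is compared across conditions. The labels give no age, sex, BSO dose or duration, Cre driver, or statement on whether the libraries come from separate animals, so the p-values measure the spread between libraries, which may be technical. The study's own design compared each tissue only with the same tissue, so the comparison across tissues made here is not the submitters'.

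The lens is a ball of epithelium-derived cells inside a collagen capsule. Epithelial cells cover the anterior face, divide near the equator, and there turn into fiber cells, which elongate, fill with crystallins, build a membrane of specialised channels and filaments, and later clear their nucleus and other organelles. Glutathione is made in the cytosol by glutamate-cysteine ligase (Gclc with its modifier Gclm) and glutathione synthetase (Gss), and it is the main small thiol that keeps lens proteins reduced.

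Total counts were 26.1, 20.5, 19.3 and 33.9 M in epithelial libraries 1 to 4 and 41.3, 46.6, 42.7 and 39.0 M in fiber libraries 1 to 4, so depth ran with tissue. Values below are CPM, counts per 1e6 of a library size scaled by the trimmed mean of M-values (TMM), and lists of 4 values follow libraries 1 to 4. A gene is called at a p below 0.05 in edgeR's quasi-likelihood test after Benjamini-Hochberg adjustment over all genes tested; a log2 difference is fibers over epithelia with its standard error (SE). Of 14988 genes tested, 5860 (39.1%) were higher and 6347 (42.3%) lower in fibers, of which 3195 (21.3%) and 3529 (23.5%) differed at least 2-fold. These shares are the background for the counts of every gene list below. Tissues that did not overlap were common too: 7851 genes were called, did not overlap and had a mean of at least 10 CPM in the higher tissue. The split depends on the scaling. Crystallins took 29.6% ± 1.23 of fiber counts and 9.61% ± 2.58 of epithelial counts (mean ± SD, n = 4). TMM put the median gene at a log2 difference of -0.09, so a difference here is relative to the bulk of genes. With library sizes taken without crystallin counts the median was -0.75 and the calls 3417 higher and 9554 lower, a shift of -0.67, and with total counts alone it was -1.11 and the calls 2444 higher and 10902 lower, a shift of -1.03. All 6347 genes called lower were called lower under these 3 scalings as well, whereas 2444 of the 5860 genes called higher (16.3% of genes tested) were called higher under each. Both alternative scalings move genes down, so a lower call was almost bound to hold. Holding under all 3 scalings is therefore informative only for higher genes, here and in the lists below. Log2 differences between 0 and about 1 therefore have a direction that is set by the scaling, and those are marked below. In bulk tissue, fewer cells of a type and less RNA per cell cannot be told apart.

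**Figure D1:**
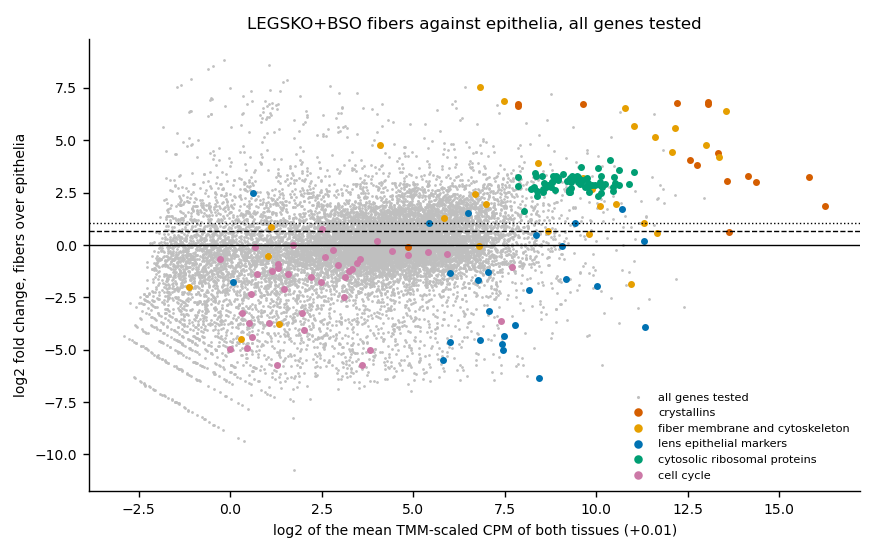
Each point is a gene tested: the x axis gives the log2 mean TMM-scaled CPM of both tissues and the y axis the log2 fold change of LEGSKO+BSO fibers over epithelia. The solid line is no change under TMM, and the dashed and dotted lines, offset by the shifts of the median of -0.67 and -1.03, mark no change with crystallin-free library sizes and with total counts. Crystallin and ribosomal protein genes lie above all 3 lines except Crygn, and Cryab, which lies between the solid and the dashed line.

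Gamma crystallins are small, stable fiber proteins of the lens core, and in the mouse 6 of them lie in a cluster on chromosome 1. The stretches below are the 100 bases before the transcription start of each (RefSeq, build GRCm38.p6), shown because these 6 genes had nearly the same tissue difference. Capitals mark TTTGTG and TATATA, the longest runs of bases that all 6 stretches share, searched on the strand of the gene.
Cryga (chr1:65103364-65103463, minus strand): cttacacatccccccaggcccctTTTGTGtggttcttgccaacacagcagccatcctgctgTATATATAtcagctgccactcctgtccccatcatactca
Crygb (chr1:65082291-65082390, minus strand): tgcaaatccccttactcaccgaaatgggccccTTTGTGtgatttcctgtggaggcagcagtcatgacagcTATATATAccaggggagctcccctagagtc
Crygc (chr1:65073533-65073632, minus strand): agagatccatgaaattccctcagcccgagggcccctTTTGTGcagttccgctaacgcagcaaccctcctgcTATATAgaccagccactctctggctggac
Crygd (chr1:65063441-65063540, minus strand): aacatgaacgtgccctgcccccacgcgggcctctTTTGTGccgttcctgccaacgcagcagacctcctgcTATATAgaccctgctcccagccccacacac
Cryge (chr1:65051164-65051263, minus strand): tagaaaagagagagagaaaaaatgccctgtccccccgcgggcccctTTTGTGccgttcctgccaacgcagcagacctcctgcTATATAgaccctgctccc
Crygf (chr1:65926422-65926521, plus strand): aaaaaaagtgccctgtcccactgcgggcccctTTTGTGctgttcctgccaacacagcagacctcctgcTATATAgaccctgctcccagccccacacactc
TTTGTG began 54 to 77 bases before the start, and 2.97% of the 32851 RefSeq promoters held it within 100 bases of theirs. TATATA, which resembles a TATA box, began 18 to 39 bases before the start, and 2.19% of the promoters held it.

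These 6 genes were about 100-fold higher in the fibers. Crygc stood at 107, 243, 127 and 124 CPM in the epithelia and at 18920.0, 14817, 19396 and 14349 CPM in the fibers, a log2 difference of 6.81 ± 0.30 (edgeR adjusted p = 1.17e-09). Crygb stood at 107, 275, 119.7 and 135 CPM against 18544, 16919, 17981 and 14070.0 CPM, a log2 difference of 6.73 ± 0.33. Fibers and epithelia did not overlap for either gene, and epithelial library 2 was the highest of its group for both. Crygd differed by 6.77 ± 0.27, Cryge by 6.75 ± 0.30, Crygf by 6.72 ± 0.27 and Cryga by 6.65 ± 0.27 on the log2 scale. Per kilobase of exon, the mean level in fibers was 26622 CPM for Crygb, 21464 for Crygc and 9078 for Crygd, against 2202 for Cryge, 732 for Crygf and 635 for Cryga. The gamma crystallins are near copies of each other, and reads shared between them may have been split or lost in the authors' counting, so the order of their levels is uncertain.

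The beta crystallins and the lens filaments followed at smaller differences. The next stretches, again the 100 bases before the start, belong to 4 beta crystallins, to Lctl, a klotho-like fiber protein, and to Lgsn, which encodes lengsin, a fiber cytoskeletal protein of the glutamine synthetase family. Capitals mark TGCTGA or its reverse complement TCAGCA, the core of the site that Maf factors bind.
Cryba1 (chr11:77725294-77725393, minus strand): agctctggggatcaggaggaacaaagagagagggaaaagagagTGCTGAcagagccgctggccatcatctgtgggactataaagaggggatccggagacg
Cryba4 (chr5:112252519-112252618, minus strand): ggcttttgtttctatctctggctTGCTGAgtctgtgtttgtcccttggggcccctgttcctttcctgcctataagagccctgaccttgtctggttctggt
Crybb1 (chr5:112255720-112255819, plus strand): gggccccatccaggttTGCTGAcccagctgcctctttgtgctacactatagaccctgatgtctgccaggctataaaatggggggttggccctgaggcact
Crybb3 (chr5:113081585-113081684, minus strand): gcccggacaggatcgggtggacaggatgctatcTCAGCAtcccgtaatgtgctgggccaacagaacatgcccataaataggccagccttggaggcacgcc
Lctl (chr9:64117047-64117146, plus strand): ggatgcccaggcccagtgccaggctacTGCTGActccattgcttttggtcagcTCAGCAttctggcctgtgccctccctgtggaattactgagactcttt
Lgsn (chr1:31176335-31176434, plus strand): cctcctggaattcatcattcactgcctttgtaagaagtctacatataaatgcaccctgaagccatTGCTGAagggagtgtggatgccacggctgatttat
Searched on both strands over 250 bases before the start, TGCTGA was found in 10 of the 15 crystallins with a promoter in the RefSeq table, in 9 of 25 fiber membrane and cytoskeleton genes and in 2 of 31 capsule and matrix genes. It was found in 16.1% of all 32851 promoters. Crystallins with it had a median log2 difference of 3.56 and those without it of 6.73, while in the fiber membrane list the medians were 4.75 with it and 1.97 without. A match is a string of letters, not a measured binding site.

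Of the 16 crystallins, which give the lens its refraction, 15 were called higher in fibers and none lower, with a median log2 difference of 3.94 against -0.09 over all genes tested. Crybb2 stood at 9587, 16055, 9576 and 7864 CPM in the epithelia and 104747, 109809, 100329 and 97586 CPM in the fibers, a log2 difference of 3.26 ± 0.21. Cryba4 and Crybb1, neighbours on chromosome 5 that are read away from each other, differed by 4.37 ± 0.24 and 4.04 ± 0.21, and Crybb3 by 3.83 ± 0.18. Cryba1, Cryba2 and Crygs differed by 3.28 ± 0.22, 3.07 ± 0.21 and 3.01 ± 0.14. The alpha crystallins, which are small heat shock proteins and chaperones, differed less. Cryaa stood at 31608, 48629, 30181 and 22322 CPM in the epithelia and 117921, 141002, 115223 and 115249 CPM in the fibers (1.88 ± 0.21), the most abundant gene in both tissues at 4.71% and 8.56% of counts. Cryab differed by 0.60 ± 0.13 under TMM and by -0.07 and -0.42 under the crystallin-free and total count scalings, so its direction is set by the scaling. Crygn was at 25.3, 51.5, 26.8 and 17.3 CPM against 31.4, 33.3, 20.6 and 27.4 CPM and was not called; it was called lower under the crystallin-free and total count scalings, at -0.76 and -1.11.

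Of 30 genes of the fiber membrane and cytoskeleton, 24 were called higher and 5 lower, with a median of 2.21; 19 of the 24 were higher under all 3 scalings. Mip, the fiber water channel aquaporin 0, stood at 1001, 1272, 1347 and 733 CPM in the epithelia and 20405, 20115, 20715 and 18626 CPM in the fibers, a log2 difference of 4.20 ± 0.19 (edgeR adjusted p = 1.44e-09). Lim2, an abundant fiber membrane protein, stood at 145, 216, 198 and 119 CPM against 6512, 5667, 6541 and 5582 CPM (5.17 ± 0.20). In both genes every fiber library exceeded every epithelial library, and epithelial library 4 was the lowest. The beaded filament genes Bfsp1 and Bfsp2 differed by 4.75 ± 0.18 and 4.44 ± 0.14, Lgsn by 6.40 ± 0.25 and Lctl by 5.66 ± 0.16. Grifin, a galectin-like lens protein, differed by 2.66 ± 0.11. The membrane skeleton genes were closer: Tmod1, which caps actin filaments, differed by 2.45 ± 0.07, Sptbn1 (beta spectrin) by 1.97 ± 0.08, Prx (periaxin) by 1.97 ± 0.13 and the adhesion molecule Nrcam by 3.21 ± 0.20. Vim, Cdh2 (N-cadherin) and Ank2 (ankyrin B) differed by 0.56 ± 0.09, 0.66 ± 0.09 and 0.55 ± 0.07 under TMM, and all 3 turned to the other side with total counts (-0.47, -0.37 and -0.48). The fiber connexin gene Gja3 (connexin 46) stood at 478, 479, 493 and 443 CPM in the epithelia and 1772, 1638, 1800.1 and 1657 CPM in the fibers (1.86 ± 0.07). Among the genes of the list called lower, Slc2a3, Gpr161, Cryl1 and Kcnj10 were under 6 CPM in every library.

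Lens epithelial markers were mostly lower in fibers. Of 25 tested out of 28, 17 were lower, all at least 2-fold, and 7 higher, with a median of -1.78. Gja1 (connexin 43), the epithelial connexin, stood at 626, 725, 612 and 767 CPM in the epithelia and 5.04, 3.85, 1.38 and 23.7 CPM in the fibers, a log2 difference of -6.34 ± 0.67 (edgeR adjusted p = 2.84e-06) and of -7.63 without fiber library 4. Foxe3, the transcription factor that keeps the epithelium proliferating, stood at 331, 315, 332 and 386 CPM against 7.77, 6.73, 7.19 and 21.2 CPM (-5.00 ± 0.34). Cdh1 (E-cadherin) stood at 304, 336, 329 and 387 CPM against 14.0, 17.2, 9.71 and 25.8 CPM (-4.35 ± 0.24). The fibers lay below the epithelia in all 3 genes, and fiber library 4 held the highest residue in each. Aqp1, the epithelial water channel, stood at 140.4, 287, 202 and 246 CPM against 4.27, 8.17, 0.873 and 24.3 CPM (-4.55 ± 0.64, and -5.59 without fiber library 4). Pdgfra, the receptor for platelet-derived growth factor, stood at 104, 155, 118 and 113 CPM against 2.73, 4.16, 0.638 and 12.2 CPM (-4.65 ± 0.50, and -5.58 without fiber library 4). The fibers again lay below every epithelial library, with fiber library 3 the lowest. Notch2, Npnt (nephronectin), Igfbp7 and Htra3 differed by -4.73 ± 0.26, -3.83 ± 0.17, -3.93 ± 0.17 and -3.14 ± 0.15. The glutamine transporter gene Slc38a3 differed by -5.49 ± 0.36 (-6.20 without fiber library 4). Of the 7 higher markers, the Wnt antagonist Sfrp1 differed by 1.73 ± 0.08 and stayed higher under all 3 scalings, as did Pcp4 (1.53 ± 0.20) and Krt18 (2.46 ± 0.52), the last at under 4 CPM. Itga6 (laminin receptor subunit) and Ptn (pleiotrophin) stood at 1.06 ± 0.07 and 1.04 ± 0.12, with values of 0.03 and 0.01 under total counts.

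**Figure D2:**
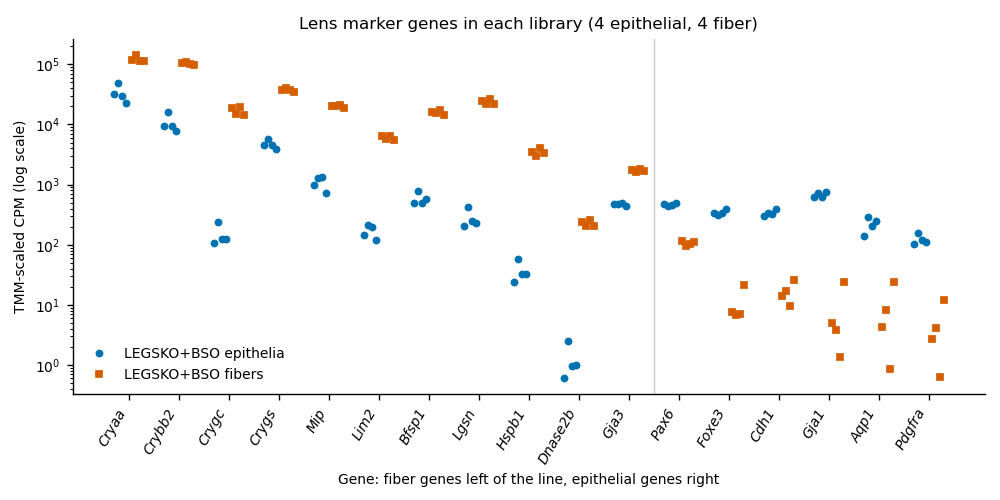
Each point is 1 library: the y axis gives TMM-scaled CPM on a log scale, circles are the 4 LEGSKO+BSO epithelial libraries and squares the 4 fiber libraries, for 11 fiber genes and 6 epithelial genes. The genes were picked as markers, and the 7 of 25 epithelial markers called higher in fibers are not drawn. The groups do not overlap in any gene shown. Of 14988 genes tested, 7851 were called, did not overlap and had a mean of at least 10 CPM in the higher tissue. Fiber library 4 gives the top square for the epithelial genes Foxe3, Cdh1, Gja1, Aqp1 and Pdgfra.

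The order of libraries within a tissue was shared by many genes. Of 792 genes called at least 16-fold lower in fibers, fiber library 4 was the highest fiber library in 539 (68.1%) and fiber library 3 the lowest in 353 (44.6%), and the median residue was 0.247 CPM in library 4 against 0.0672 in library 3. Of 224 genes called at least 16-fold higher in fibers, epithelial library 2 was the highest epithelial library in 135 (60.3%). Crystallins took 13.2% of counts in epithelial library 2 and 7.05% to 9.14% in the other epithelial libraries. Where leaving out 1 of these libraries moved a difference by over 1.5 times in fold, the value without it is given beside the gene.

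Of 33 transcription factors of the lens tested out of 35, 13 were higher and 19 lower (median -0.49), beside 39.1% and 42.3% of all genes. The share higher is near that background, and 2 of the 13 were higher under all 3 scalings. Hsf4, the heat shock factor mutated in inherited cataract, stood at 9.36, 13.5, 10.4 and 8.52 CPM in the epithelia and 301, 259, 299.6 and 254 CPM in the fibers, a log2 difference of 4.75 ± 0.14 (edgeR adjusted p = 1.35e-10). Sox1 and Etv5 differed by 1.33 ± 0.10 and 1.16 ± 0.13, and Etv5 was not called under total counts, at 0.14. Prox1 and Maf, which drive fiber elongation and crystallin genes, differed by 0.90 ± 0.08 and 0.83 ± 0.11 under TMM, and by -0.12 and -0.19 under total counts, so their directions are set by the scaling. Pitx3 and Sox2 likewise turned from 0.51 ± 0.08 and 0.69 ± 0.06 to -0.51 and -0.33. Pax6, the master regulator of eye development, stood at 473, 434, 456 and 495 CPM in the epithelia and 114, 94.9, 103 and 113 CPM in the fibers (-2.13 ± 0.08). Tfap2a, Mab21l1, Six5, Meis1 and Gata3 differed by -1.69, -1.28, -2.04, -1.82 and -2.93 on the log2 scale. The Notch targets Hes1 and Hey1 differed by -4.26 ± 0.17 and -2.83 ± 0.14, and Klf4 by -4.50 ± 0.34 (-5.25 without fiber library 4). Among 19 RNA-binding proteins and RNA granule components, 14 were higher and 3 lower (median 0.79), with 8 of the 14 higher under all 3 scalings. The median of this list was 0.12 with crystallin-free sizes and -0.24 with total counts, so its sign depends on the scaling. Tdrd7, a granule protein needed for lens clarity, stood at 192, 234, 190.5 and 155 CPM against 2854, 2624, 2818 and 2409 CPM (3.79 ± 0.13). Rbm38 and Carhsp1 differed by 2.58 ± 0.10 and 2.49 ± 0.15.

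Fibers lose their nuclei and organelles, and of 37 genes tested for that process 24 were higher and 10 lower (median 0.62), 12 of the 24 under all 3 scalings. The list median was -0.05 with crystallin-free sizes and -0.41 with total counts, beside -0.75 and -1.11 over all genes. Its sign is therefore set by the scaling. Dnase2b, the nuclease that degrades fiber DNA, stood at 0.612, 2.53, 0.965 and 0.996 CPM in the epithelia and 243, 205, 255 and 204 CPM in the fibers, a log2 difference of 7.54 ± 0.27 (edgeR adjusted p = 3.81e-10). The related nucleases Dnase2a and Dnase1l1 differed by -1.11 ± 0.13 and -1.52 ± 0.12. Plaat3, a phospholipase that breaks organelle membranes in the lens, stood at 61.7, 75.4, 67.4 and 56.1 CPM against 570.1, 526, 573 and 463 CPM (3.03 ± 0.11). Gabarapl1, which coats autophagosomes, differed by 3.17 ± 0.10, the mitophagy receptor Bnip3l by 1.43 ± 0.11, the mitochondrial kinase Pink1 by 1.59 ± 0.09, and the autophagy adaptor Sqstm1 by 1.51 ± 0.09. The cell cycle inhibitor Cdkn1c stood at 3.03 ± 0.20, while Casp6 stood at -1.79 ± 0.17 and Lmnb1, a nuclear lamin, at -1.41 ± 0.10. Epg5, Atg16l1 and Cdkn1b were not called, at log2 differences of -0.02 ± 0.05, 0.09 ± 0.08 and 0.03 ± 0.08 under TMM; all 3 were called lower under the crystallin-free and total count scalings, at -1.05, -0.94 and -0.99 with total counts.

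Cell cycle genes were lower in fibers as a group. Of 40 tested, 34 were lower, 25 of them at least 2-fold, 2 were higher and 4 were not called (median -1.32); none was higher under all 3 scalings. Top2a, which untangles DNA for division, stood at 30.7, 18.5, 21.3 and 23.8 CPM in the epithelia and 0.350, 0.438, 0.134 and 0.883 CPM in the fibers (-5.71 ± 0.30). Mki67, a marker of dividing cells, stood at 34.0, 22.2, 23.7 and 28.8 CPM against 0.595, 0.595, 0.638 and 1.59 CPM (-5.00 ± 0.25). Fibers lay below epithelia in both. Rrm2, which makes deoxynucleotides, and Cdk1, the mitotic kinase, differed by -4.07 ± 0.34 and -4.93 ± 0.50, the latter by -5.73 without fiber library 2, and Ccnd1 by -1.05 ± 0.09.

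Fibroblast growth factor (FGF) from the eye fluids drives fiber differentiation, and of 24 FGF receptor and feedback genes tested 8 were higher and 13 lower (median -0.27). Fgf12, an intracellular member of the family, stood at 3.99 ± 0.11, and the feedback genes Etv4 and Il17rd at -3.57 ± 0.30 and -3.86 ± 0.18. Fgfr3 differed by 0.58 ± 0.07 and Fgfr2 by 0.47 ± 0.06 under TMM, with -0.45 and -0.56 under total counts. Notch and Wnt pathway genes were lower in 24 of 35 and higher in 8 (median -1.24): the Wnt receptors Fzd1 and Fzd2 differed by -5.32 ± 0.29 and -4.86 ± 0.23. Dkk3, the most abundant gene of that list, differed by 0.19 ± 0.08 under TMM and by -0.83 under total counts, and its call was lost without any 1 of 5 libraries (epithelial 1 and 3, fiber 1, 2 and 4). TGF-beta and BMP pathway genes were lower in 19 of 32 and higher in 8 (median -0.81), with Tgfbr2, the type II receptor, at -5.47 ± 0.27 and Id3, a BMP target, at -4.57 ± 0.26. Acta2, smooth muscle actin, stood at 132, 129, 126 and 101 CPM in the epithelia and 1055, 1041, 1088 and 899 CPM in the fibers (3.07 ± 0.11). Ltbp2, a zonule protein, stood at 2.74, 21.1, 0.822 and 1.36 CPM against 0.0700, 0, 0.0336 and 0.106 CPM, with epithelial library 2 apart from the rest; its log2 difference was -6.88 ± 1.39, and -4.90 without that library. Of 16 ephrins and Eph receptors, 3 were higher and 10 lower (median -1.45); Efna1, Ephb3 and Ephb6 differed by -3.76 ± 0.26, -3.05 ± 0.20 and -2.24 ± 0.13, and Epha2, whose mutations cause cataract, by 1.87 ± 0.07.

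Genes of the lens capsule, its matrix and its receptors were lower in 34 of 41 cases and higher in 5 (median -1.56). Col4a1, the main collagen chain of the capsule, stood at 9164, 8805, 9012 and 11225 CPM in the epithelia and 1226, 1255, 1062 and 1367 CPM in the fibers (-2.96 ± 0.12). Itga3, a laminin receptor subunit, differed by -5.44 ± 0.35. Col18a1 stood at 7.13, 49.1, 4.11 and 3.82 CPM against 0.735, 0.438, 0.235 and 0.741 CPM, again with epithelial library 2 apart, and its log2 difference moved from -4.88 ± 0.98 to -3.20 without it. The list as a whole took 4.42% ± 0.491 of epithelial counts and 0.634% ± 0.0453 of fiber counts (mean ± SD, n = 4). Junction genes were mixed, with 10 of 28 higher and 15 lower (median -0.46), and the adhesion gene Jam2 stood at -5.75 ± 0.41 (-6.43 without fiber library 4). Of 41 genes for water, glucose and ion transport, 31 were lower and 7 higher (median -1.62). Atp1b1, a subunit of the sodium pump, stood at 433, 394, 417 and 534 CPM against 9.27, 7.82, 3.16 and 24.9 CPM (-5.31 ± 0.48, and -6.03 without fiber library 4). Clic5, a chloride channel family member, went the other way at 6.70 ± 0.23. Calcium pumps and calpains were higher in 13 and lower in 16 of 33 (median -0.27), with Atp2b2 and Atp2b4, which pump calcium out of the cell, at -7.36 ± 0.43 and -5.51 ± 0.31 (-8.69 and -6.29 without fiber library 4), the receptor channel gene Itpr3 at -3.54 ± 0.15 and the calcium-binding S100a4 at 3.14 ± 0.16. Amino acid transporters were lower in 20 of 26 and higher in 1 (median -1.69), with Slc38a4, Slc7a8 and Slc7a2 at -4.75 ± 0.37 (-5.52 without fiber library 4), -4.45 ± 0.28 and -1.34 ± 0.09.

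**Figure D3:**
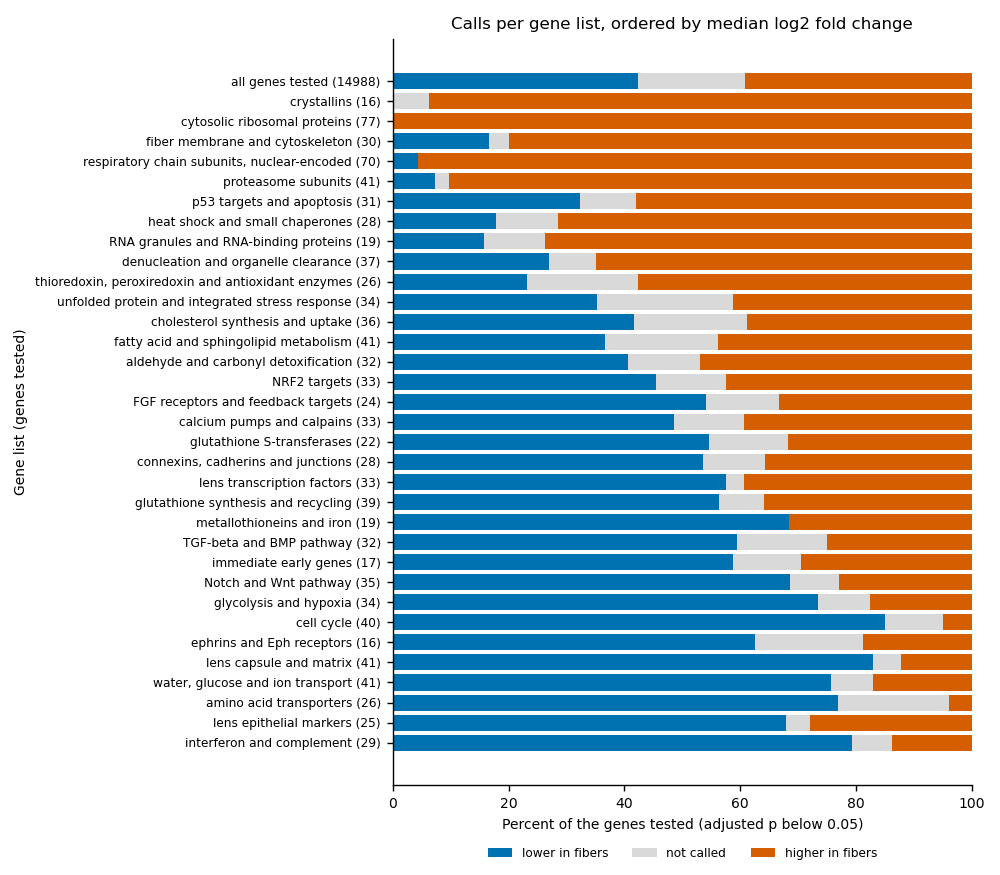
Each bar is a gene list with the number of genes tested in parentheses, ordered by median log2 fold change with all genes tested on top. Orange is the percent called higher in LEGSKO+BSO fibers, blue lower and grey not called, under TMM scaling. Crystallins (15 of 16), ribosomal proteins (77 of 77) and respiratory subunits (67 of 70) are mostly orange, and cell cycle (34 of 40 lower) and capsule genes (34 of 41 lower) mostly blue, beside 39.1% higher and 42.3% lower over all genes.

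The enzymes that make glutathione were higher in fibers than in epithelia under TMM. Gclc, the gene that LEGSKO deletes and whose enzyme BSO inhibits, stood at 76.7, 57.4, 63.5 and 45.7 CPM in the epithelia and 121, 105, 108 and 120.3 CPM in the fibers. Its log2 difference was 0.90 ± 0.13 (edgeR adjusted p = 4.29e-05) under TMM, and -0.13 and not called under total counts. Scaled over all 24 libraries, Gclc stood at 53.1 ± 8.58 CPM in epithelia of WT, at 39.8 ± 7.17 in those of LEGSKO and at 57.7 ± 12.3 in those of LEGSKO+BSO, and at 130.0 ± 46.0, 112.0 ± 9.37 and 110.0 ± 7.33 CPM in the fibers (mean ± SD, n = 4). The counts cover the whole gene and the labels do not give the deleted exons, so these levels do not check the deletion. Gclm, the modifier subunit, stood at 41.3, 46.7, 38.3 and 26.6 CPM against 158, 158, 166 and 173 CPM (2.10 ± 0.14). Gss, which adds glycine in the last step, stood at 90.6, 144, 95.9 and 72.8 CPM against 659.8, 759, 686 and 637 CPM (2.77 ± 0.18; edgeR adjusted p = 3.19e-08). Fibers exceeded epithelia in every library for all 3 genes, and Gclm and Gss were higher under all 3 scalings. In the fit of all 24 libraries the tissue difference in LEGSKO+BSO minus that in WT was -0.35 ± 0.25 for Gclc, 0.10 ± 0.21 for Gclm and 0.18 ± 0.22 for Gss on the log2 scale, and none of the 3 was called (edgeR adjusted p = 0.567, 0.886 and 0.785).

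Slc7a11, the cystine importer, stood at 756, 784, 728 and 827 CPM in the epithelia and 219, 290.3, 225 and 261 CPM in the fibers (-1.64 ± 0.10), and its partner chain Slc3a2 at 649, 635, 619 and 767 CPM against 55.9, 59.0, 46.0 and 73.4 CPM (-3.51 ± 0.14). Epithelia exceeded fibers in every library for both. Slc1a5 and Slc1a4, neutral amino acid carriers, differed by -2.11 ± 0.14 and -0.62 ± 0.09, the transsulfuration enzymes Cbs and Cth by -1.59 ± 0.14 and -0.60 ± 0.20 (the call of Cth was lost without epithelial or fiber library 4, at -0.49 and -0.49), and Mat2a, which makes S-adenosylmethionine, by -1.40 ± 0.08. Ggt1, which takes extracellular glutathione apart, stood at 25.5, 22.5, 25.1 and 30.4 CPM against 1.15, 0.876, 0.940 and 1.24 CPM (-4.63 ± 0.14), and the exporter gene Abcc4 at -4.29 ± 0.22. Ggct, which acts on gamma-glutamyl amino acids inside the cell, stood at 1.98 ± 0.11. Slc25a39, which carries glutathione into mitochondria, stood at 1.92 ± 0.10 and its relative Slc25a40 at -1.58 ± 0.11. Over the whole list of glutathione synthesis and recycling, 14 of 39 genes tested were higher and 22 lower (median -0.62), beside 39.1% and 42.3% of all genes. Of the 14, 8 were higher under all 3 scalings.

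Among peroxidases and reductases, Gpx1, the cytosolic glutathione peroxidase, stood at 32.2, 42.9, 37.9 and 34.1 CPM in the epithelia and 152, 152, 163 and 141 CPM in the fibers (2.05 ± 0.09). Gpx4, which reduces lipid peroxides, stood at 342, 222, 341 and 263 CPM against 226, 204, 233 and 228 CPM (-0.39 ± 0.13). Its 2 groups overlapped, and its call was lost without epithelial library 1 (-0.28), epithelial library 3 (-0.28) or fiber library 2 (-0.34). Gpx8 and Gpx7, peroxidases of the endoplasmic reticulum, differed by -5.40 ± 0.23 and -5.65 ± 0.54, the latter by -6.62 without fiber library 4. Gpx3, the secreted peroxidase, stood at 13.8, 63.2, 2.57 and 5.49 CPM against 0.420, 0.282, 0.537 and 0.565 CPM; the epithelial values ran over a wide range with library 2 at the top, and its log2 difference of -5.54 ± 1.08 became -3.99 without that library. Gsr, glutathione reductase, differed by 0.57 ± 0.10 under TMM and -0.46 under total counts. The glutaredoxins Glrx3, Glrx2 and Glrx5 stood at 2.48 ± 0.09, 1.26 ± 0.07 and 0.88 ± 0.12, the last turning to -0.15 under total counts. Of the enzymes that make NADPH, Me1 (malic enzyme) stood at 39.4, 21.5, 27.5 and 18.4 CPM against 101, 103, 115 and 89.8 CPM (1.93 ± 0.19), higher in every fiber library and under all 3 scalings, while G6pdx and Pgd of the pentose phosphate pathway stood at -0.96 ± 0.11 and -0.78 ± 0.09.

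Thioredoxin, peroxiredoxin and other antioxidant enzymes were higher in 15 and lower in 6 of 26 (median 0.36), 8 of the 15 under all 3 scalings. Their median was -0.30 with crystallin-free sizes and -0.66 with total counts, so its sign is set by the scaling. Sod1, the cytosolic superoxide dismutase, stood at 56.2, 71.8, 61.0 and 49.5 CPM in the epithelia and 377, 372, 396 and 339 CPM in the fibers (2.64 ± 0.11). Prdx6 and Sesn3 differed by 1.41 ± 0.08 and 2.41 ± 0.14, and Txnrd3 by -2.06 ± 0.15. Glutathione S-transferases, which couple glutathione to electrophiles, were higher in 7 and lower in 12 of 22 (median -0.32). Gstm1, the most abundant, stood at 1225, 1000.4, 1093 and 1005 CPM against 90.2, 85.6, 64.2 and 119 CPM (-3.59 ± 0.17), and Gstm2 and Gstt1 differed by -4.51 ± 0.29 and -4.26 ± 0.32 (-4.96 for Gstt1 without fiber library 4). Reads shared among the Gstm copies make the split between Gstm1 and Gstm2 uncertain. Of 33 targets of NRF2, the factor that answers thiol stress, 14 were higher and 15 lower (median -0.06). Hmox1, heme oxygenase, stood at 22.9, 9.50, 11 and 7.71 CPM against 950.0, 584, 980.2 and 669 CPM (5.96 ± 0.35; edgeR adjusted p = 1.48e-08), with fiber libraries 1 and 3 above fiber libraries 2 and 4. Ftl1, the ferritin light chain, stood at 345, 299, 324 and 227 CPM against 7254, 5672, 7854 and 6789.9 CPM (4.53 ± 0.16), and Trim16 at -4.53 ± 0.37. The core of the antioxidant response element, TGACNNNGC on either strand, which partly overlaps the Maf core, was found within 250 bases before the start in 9 of 27 NRF2 targets with a promoter, in 6 of 33 glutathione genes, in 8 of 15 crystallins and in 10.2% of all promoters. NRF2 targets with it had a median log2 difference of -0.78 and those without it of -0.06. Iron and metal genes were lower in 13 of 19 and higher in 6 (median -0.73), with Steap3, an iron reductase, and Heph, an iron oxidase, at -6.41 ± 0.42 and -5.43 ± 0.34 (-7.85 and -6.11 without fiber library 4). Aldehyde and carbonyl detoxification was near the background, 15 higher and 13 lower of 32 (median -0.01). Aldh3a1, a corneal and lens aldehyde dehydrogenase, stood at 2164, 1945, 2138 and 2787 CPM against 35.3, 25.4, 16.9 and 95.4 CPM (-5.71 ± 0.50, and -6.44 without fiber library 4), Sord, which makes fructose from sorbitol, at 3.54 ± 0.13, and Park7 at 2.66 ± 0.12.

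**Figure D4:**
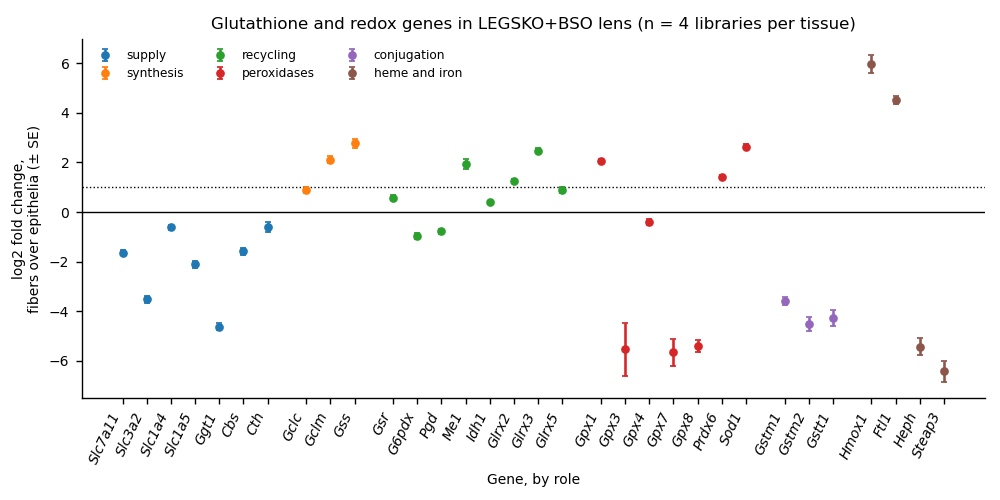
Each point is the log2 fold change of LEGSKO+BSO fibers over epithelia and its bar is ± 1 SE (4 libraries per tissue), with genes grouped by role on the x axis. The solid line is no change under TMM and the dotted line no change under total counts. Slc7a11, Slc3a2 and Ggt1 of the supply group lie below 0, Gclm and Gss lie above both lines, and Gclc lies between them.

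Genes of protein synthesis and turnover lay mostly on the fiber side. All 77 cytosolic ribosomal protein genes tested were higher, all at least 2-fold and all under the 3 scalings, with log2 differences from 1.64 to 4.06 (median 2.99), and together they took 7.16% ± 0.14 of fiber counts and 1.84% ± 0.268 of epithelial counts (mean ± SD, n = 4). Rps3 stood at 319.8, 428, 348 and 286 CPM in the epithelia and 3874, 3828, 4105 and 3650.1 CPM in the fibers (3.48 ± 0.13), and Rpl28 and Rps19 differed by 4.06 ± 0.14 and 3.74 ± 0.14. Of 70 nuclear-encoded respiratory chain subunits, 67 were higher and 3 lower (median 1.64), 50 of the 67 under all 3 scalings; Cox4i1, Cox7c and Ndufb7 differed by 3.12 ± 0.10, 3.66 ± 0.11 and 2.75 ± 0.11. Of 41 proteasome subunits, 37 were higher and 3 lower (median 1.29), 22 of the 37 under all 3 scalings, with Psmc5, Psmd4 and Psmc1 at 2.73 ± 0.10, 2.65 ± 0.12 and 2.17 ± 0.09. Short transcripts were higher in general: over 13994 genes with an exon length, the fifth with the shortest exons (65 to 2438 bases) had a median log2 difference of 0.40 and the fifth with the longest (7611 to 123179 bases) of -0.31. The ribosomal protein genes had a median exon length of 1830 bases, the respiratory subunits 1778 and the proteasome subunits 2820, against 4418 over all genes. How much transcript length or RNA quality adds to these lists was not tested.

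Chaperones leaned the same way under TMM, 20 of 28 higher and 5 lower (median 0.95), 13 of the 20 under all 3 scalings. Their median was 0.28 with crystallin-free sizes and -0.08 with total counts, so its sign depends on the scaling. The promoters of 2 of the genes higher in fibers are shown, the same 100 bases as above.
Hspb1 (chr5:135887819-135887918, plus strand): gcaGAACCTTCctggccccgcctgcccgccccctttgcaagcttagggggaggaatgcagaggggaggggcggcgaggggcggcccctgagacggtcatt
Hspe1 (chr1:55088048-55088147, plus strand): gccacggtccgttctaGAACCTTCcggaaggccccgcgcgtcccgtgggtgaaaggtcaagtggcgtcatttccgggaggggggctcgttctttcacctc
Capitals mark GAANNTTC, a pair of heat shock factor units that reads the same on both strands. It was found within 250 bases before the start in 9 of 21 chaperone genes with a promoter, in none of 15 crystallins, and in 6.69% of all promoters; the chaperone genes with it had a median log2 difference of 1.31 and those without it of 0.69. Hspb1, a small heat shock protein related to the alpha crystallins, stood at 24.2, 57.8, 33.0 and 33.3 CPM in the epithelia and 3455, 2982, 4106 and 3404 CPM in the fibers (6.56 ± 0.27; edgeR adjusted p = 8.52e-10). Hspe1, the mitochondrial co-chaperonin, differed by 3.81 ± 0.14 and was chosen for display after its value was seen. Dnajb1, a co-chaperone, stood at 26.3, 32.4, 28.6 and 27.4 CPM against 854, 685, 873 and 739.7 CPM (4.78 ± 0.11), and the constitutive Hspa8 at 2.85 ± 0.11. The groups did not overlap for Hspb1 or Dnajb1. Unfolded protein and integrated stress response genes were near the background, 14 of 34 higher and 12 lower (median 0.09). Ppp1r15a, which restarts translation after stress, stood at 15.3, 15.3, 15.4 and 15.6 CPM against 195, 148, 206 and 179 CPM (3.56 ± 0.10), the mitochondrial folate enzyme Mthfd2 at 4.42 ± 0.11 and the serine synthesis enzyme Phgdh at -3.18 ± 0.14. Hsp90b1, the most abundant of that list, differed by 0.94 ± 0.07 under TMM and -0.09 under total counts. Of 31 p53 targets and apoptosis genes, 18 were higher and 10 lower (median 1.03), 14 of the 18 under all 3 scalings. The median of these genes was 0.36 with crystallin-free sizes and 0.00 with total counts. Ccng1, cyclin G1, stood at 62.6, 94.7, 71.8 and 56.4 CPM against 1754, 1550.1, 1683 and 1647 CPM (4.54 ± 0.16), Eda2r at 4.28 ± 0.21 and the initiator caspase Casp8 at -5.24 ± 0.33. Immediate early genes were lower in 10 of 17 and higher in 5 (median -0.97), with Fosl2 and Ccn1 at -4.93 ± 0.32 and -4.05 ± 0.23 and Klf6 at 2.23 ± 0.13.

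Glycolysis and hypoxia genes were mostly lower in fibers, while the lipid lists lay near the background of 39.1% higher and 42.3% lower over all genes. Of 34 glycolysis and hypoxia genes, 25 were lower and 6 higher (median -1.29). Ldhb, a lactate dehydrogenase subunit, stood at 14.7, 18.8, 16.9 and 16.6 CPM in the epithelia and 0.385, 0, 0.168 and 0.671 CPM in the fibers (-5.80 ± 0.37), and the hypoxia-induced Car9 at -4.91 ± 0.45 (-6.51 and -5.66 without fiber library 4). Ndrg1 ran against its list at 61.8, 116, 65.7 and 59.2 CPM against 2721, 2633, 2868 and 2389.7 CPM (5.13 ± 0.22), and Gapdh differed by 0.88 ± 0.07 under TMM and -0.15 under total counts. Fatty acid and sphingolipid genes were higher in 18 and lower in 15 of 41 (median 0.01). Fabp5, a fatty acid carrier, stood at 134, 302, 162 and 160.4 CPM against 9496, 8567, 9441 and 8342 CPM (5.56 ± 0.26), while Lpl (lipoprotein lipase) and Elovl7 (fatty acid elongase) stood at -4.19 ± 0.21 and -2.41 ± 0.18. Cholesterol genes were higher in 14 and lower in 15 of 36 (median 0.04), with Pmvk, an enzyme of the mevalonate pathway, at 2.34 ± 0.06, Insig1, which restrains it, at 2.09 ± 0.11 and the exporter Abcg1 at -1.70 ± 0.38. The regulator Srebf1, the most abundant of that list, differed by 0.78 ± 0.06 under TMM and -0.24 under total counts. Interferon and complement genes were lower in 23 of 29 and higher in 4 (median -2.19), with C4b and Cd59a at -5.90 ± 0.27 (-6.64 without fiber library 4) and -2.01 ± 0.09.

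The largest differences were read from genes called, not overlapping between tissues and at a mean of at least 10 CPM in the higher tissue, 7851 in all. Among the 12 with the highest log2 difference were Nxf7, Abcc6, Dnase2b, Tcp11, Birc7, Crygc, Crygd, Lypd1, Cryge and Crygb. Abcc6, a membrane transporter involved in preventing tissue calcification, stood at 1.09, 1.25, 0.715 and 0.651 CPM in the epithelia and 179, 133, 186 and 182 CPM in the fibers (7.55 ± 0.18). Tcp11, named for its expression in testis, stood at 4.20, 9.11, 5.36 and 5.20 CPM against 951, 745, 996 and 776 CPM (7.20 ± 0.24). Nxf7, of the nuclear RNA export factor family, had 9 counts in the 4 epithelial libraries together and 1565 in the fibers (7.61 ± 0.31). All 4 fiber libraries lay far above all 4 epithelial libraries in these genes. Birc7, an inhibitor of apoptosis, differed by 6.88 ± 0.20 and Lypd1 by 6.75 ± 0.14. Among the 12 with the lowest were Col1a2, Il17re, Efemp1, Fbln1, Fmod, Npr3, Glt8d2, Fbln7, Ccbe1, Penk and Serping1. Col1a2, a chain of type I collagen, stood at 65.6, 38.3, 70.5 and 70.1 CPM against 0.525, 0.0939, 0 and 1.41 CPM (-6.95 ± 0.46, and -8.22 without fiber library 4). Npr3, the clearance receptor for natriuretic peptides, stood at 25.9, 22.2, 20.6 and 21.2 CPM against 0.420, 0.125, 0 and 0.424 CPM (-6.55 ± 0.31). Serping1, the C1 inhibitor, and Penk, proenkephalin, differed by -6.47 ± 0.43 and -6.47 ± 0.50, and by -8.14 and -7.95 without fiber library 4. Efemp1 and Fbln1 stood at 15.4, 44.5, 12.7 and 17.7 CPM and 14.2, 63.0, 11.4 and 10.4 CPM in the epithelia, with library 2 above the others in both, and differed by -6.83 ± 0.57 and -6.73 ± 0.85; without epithelial library 2 Fbln1 stood at -5.67.

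Markers of neighbouring tissues were higher in the epithelial libraries for most lists. Summed levels were 87.8 to 120.0 CPM in epithelia and 5.54 to 10.4 CPM in fibers for 9 red cell markers, 605 to 704 against 291 to 327 for 17 iris and ciliary body markers, and 2090 to 2914 against 20.8 to 105.0 for 15 cornea and conjunctiva markers, almost all of it Aldh3a1. For 26 retinal markers the sums were 40.2 to 146 CPM in epithelia and 45.3 to 50.6 in fibers, and for 17 immune markers 4.29 to 24.7 against 5.51 to 8.5. For 12 vessel markers the sums were 237 to 268 CPM in epithelia and 167 to 179 in fibers. The vessel marker Cldn5 and the corneal markers Kera and Sprr1a were at 0 counts in all 8 libraries, but other members of both lists were present. The corneal and conjunctival keratins Krt12, Krt13 and Krt6a reached 28, 38 and 41 counts, and all 4 cornea and conjunctiva markers tested were called lower in fibers. Summed muscle and stroma markers were 406 to 437 CPM in epithelia and 1095 to 1294 in fibers, where Acta2 alone gave 899 to 1088. Of the iris markers tested Oca2 had the largest difference (-5.88 ± 0.44, and -7.02 without fiber library 4). Gnat1, the transducin of rod photoreceptors, stood at 1.78, 4.84, 15.8 and 6.93 CPM in the epithelia and 0.0350, 0.0939, 0.336 and 0.0353 CPM in the fibers (-5.81 ± 0.80, with -5.10 without epithelial library 3 and -6.91 without fiber library 3), with epithelial library 3 the highest. The part of these markers in the tissue differences was not tested.

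The same tissue contrast was made in the other 2 conditions from a fit of all 24 libraries (15560 genes tested); the 3 contrasts share no library. Fibers were higher than epithelia in 5761 genes (37.0% of those tested) and lower in 6131 (39.4%) of WT lenses, and in 5724 (36.8%) and 6065 (39.0%) of untreated LEGSKO lenses. In this fit 5924 genes were higher and 6349 lower in LEGSKO+BSO. Of those 5924, 5379 (90.8%; 93.4% of the WT calls) were higher in WT and 5406 (91.3%; 94.4% of the LEGSKO calls) in LEGSKO as well, and 8 and 5 were called lower. Of the 6349, 5616 (88.5%; 91.6% of the WT calls) were lower in WT and 5581 (87.9%; 92% of the LEGSKO calls) in LEGSKO. List medians lay close together: crystallins had log2 medians of 3.97 in LEGSKO+BSO, 3.68 in WT and 3.92 in LEGSKO, glutathione genes -0.59, -0.44 and -0.52, ribosomal proteins 3.02, 3.00 and 2.88, cell cycle genes -1.28, -1.54 and -1.36, and NRF2 targets -0.03, -0.22 and -0.08. WT fiber library 1 stood apart, with 50.1% of its counts in crystallins while the remaining WT fiber libraries held 27.6% to 29.6%. Without it 5650 genes were higher and 6243 lower in WT fibers, 5294 and 5620 of them shared with LEGSKO+BSO, and the WT medians became 3.15 for crystallins, -0.61 for glutathione genes, 2.96 for ribosomal proteins, -1.56 for cell cycle genes and -0.29 for NRF2 targets.

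The tissue difference itself was then tested between conditions by an interaction term. Against WT, 43 of 15560 genes (0.276%) had a different fiber to epithelium difference in LEGSKO+BSO, 25 with a higher and 18 with a lower log2 value, and 2121 genes had an unadjusted p below 0.05. Against untreated LEGSKO, 5 genes (0.0321%) did, and 1645 had an unadjusted p below 0.05. These counts depend on the tool, the scaling and the model: DESeq2 called 293 and 55, and edgeR with total counts 13 and 0. With epithelia and fibers of the same number and condition treated as a pair (replicate block), edgeR called 35 and 0. Without WT fiber library 1 the first count was 94, of which 38 were among the 43, and over all 16 libraries left out in turn it ran from 12 (without LEGSKO+BSO epithelial library 4) to 94 (also without WT epithelial library 4). Against LEGSKO it ran from 1 (without LEGSKO epithelial library 2) to 8 (without LEGSKO+BSO fiber library 2). In simulated counts the same test recovered 68.7% of 2-fold and 92.4% of 4-fold differences against WT, planted only in genes above a minimum mean count. The simulated libraries held no shift shared by many genes, such as that of WT fiber library 1. These rates are therefore not the power of the test in the data. Of the 43 genes, 8 kept the call whichever of the 16 libraries involved was left out: Tacr3, Adcy1, Nat8l, Pygl, Aldh1a1, Hdac9, Manba and Mgat5b, of which Pygl was named after its values were seen. In 27 of the 43 the LEGSKO value lay nearer to LEGSKO+BSO than to WT. The 43 genes were selected by their difference between LEGSKO+BSO and WT, and the share over all genes was not counted, so nothing is concluded from the 27.

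Tacr3, the neurokinin 3 receptor, had the largest difference. It stood at 14.9, 11.5, 10.8 and 14.9 CPM in LEGSKO+BSO epithelia and 0.541, 0.490, 0.131 and 0.615 CPM in the fibers, and at 0.195, 0.100, 0 and 0.0876 CPM and 0.164, 0.509, 0.665 and 0.200 CPM in WT epithelia and fibers. WT epithelia lay at 0.195 CPM or less, while untreated LEGSKO epithelia held 15.9, 20.2, 15.9 and 12.9 CPM. The log2 tissue difference was -4.87 in LEGSKO+BSO, 2.06 ± 0.64 in WT and -5.30 in LEGSKO. The WT value rests on at most 0.665 CPM in any library, near the floor, and the WT tissues overlapped. LEGSKO+BSO minus WT was -6.93 ± 0.75 (edgeR adjusted p = 1.6e-05), or -7.09 without WT fiber library 1, and its size depends on that WT value. Manba, which encodes the lysosomal beta-mannosidase, lies 551 kb from Tacr3 on chromosome 3 and was the only other of the 43 genes within 1 Mb of another. It stood at 15.1, 15.2, 14.4 and 18.8 CPM in LEGSKO+BSO epithelia and 24.4, 29.1, 25.1 and 26.0 CPM in the fibers, against 21.4, 19.5, 22.8 and 19.7 CPM and 10.3, 14.1, 10.5 and 13.1 CPM in WT. Its tissue difference was 0.72 in LEGSKO+BSO, -0.79 in WT and 0.60 in LEGSKO, and LEGSKO+BSO minus WT was 1.50 ± 0.16 (edgeR adjusted p = 1.6e-05), or 1.46 without WT fiber library 1. Epithelia and fibers did not overlap in either condition under TMM, with fibers higher in LEGSKO+BSO and lower in WT. In LEGSKO+BSO that order is set by the scaling, since the tissue difference was 0.01 and not called with crystallin-free library sizes, and -0.35 with total counts; the difference from WT was called under both, at 1.56 and 1.59.

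Mgat5b, which branches sugar chains on proteins, was called against both other conditions, which share the LEGSKO+BSO libraries. Its means were 2.24 ± 0.488 CPM in LEGSKO+BSO epithelia and 32.1 ± 2.89 CPM in the fibers (mean ± SD, n = 4), 4.57 ± 0.848 and 26.8 ± 2.93 CPM in LEGSKO, and 3.78 ± 0.650 and 18.3 ± 1.88 CPM in WT. The tissue difference of LEGSKO+BSO exceeded that of WT by 1.59 ± 0.21 (edgeR adjusted p = 0.000449) and that of LEGSKO by 1.31 ± 0.21 (edgeR adjusted p = 0.0117). The second call was lost without LEGSKO epithelial library 2, with total counts and with the replicate block, at edgeR adjusted p of 0.0517, 0.0881 and 0.0622. Aldh1a1, a retinaldehyde dehydrogenase and epithelial marker, was lower in fibers in all 3 conditions, at log2 values of -1.93 in LEGSKO+BSO, -2.96 in WT and -2.22 in LEGSKO, a difference from WT of 1.03 ± 0.18 (edgeR adjusted p = 0.0111); reads shared with its near copy Aldh1a7 are uncertain. Adcy1, an adenylate cyclase, and Nat8l, which makes N-acetylaspartate, differed from WT by -1.53 ± 0.24 and -1.26 ± 0.22 (the call of Nat8l was lost with total counts, edgeR adjusted p = 0.0969), and Hdac9, a histone deacetylase, by 1.15 ± 0.20. Pygl, liver glycogen phosphorylase, stood at a tissue difference of 0.14 in LEGSKO+BSO and -0.67 in WT, a difference of 0.81 ± 0.14. The difference from WT was positive for Aldh1a1, Hdac9 and Pygl and negative for Adcy1 and Nat8l. The same sign does not mean the same change of levels in the same tissue.

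The other genes at the ends of the comparison with WT, among calls with an average log2 CPM of at least 1, lost the call without at least 1 library. Of the 16 fits that left out 1 library, Cabp5 was called in 10, Drd4 in 4, Glcci1 in 14, Tert in 7, Trim34a in 4, Hmgn3 in 14, Cdc7 in 4, Creg1 in 5 and Actr5 in 8. With total counts, Drd4, Glcci1, Tert, Trim34a, Cdc7, Creg1 and Actr5 lost the call as well (edgeR adjusted p of 0.0541 to 0.384). On the high side Cabp5, a calcium-binding protein known from retina, differed by 1.96 ± 0.38, Drd4, a dopamine receptor, by 1.64 ± 0.36, Glcci1 by 1.47 ± 0.27 and Tert, the telomerase subunit, by 0.99 ± 0.20. On the low side Trim34a, Hmgn3, Cdc7, Creg1 and Actr5 differed by -2.20 ± 0.45, -1.04 ± 0.19, -1.04 ± 0.23, -0.82 ± 0.17 and -0.78 ± 0.15. Hmgn3, a nucleosome-binding protein, was the most abundant of these, at 304 ± 31.3 CPM in LEGSKO+BSO fibers, 341 ± 30.9 CPM in LEGSKO fibers and 635 ± 219 CPM in WT fibers (mean ± SD, n = 4), and without WT fiber library 1 its difference was -0.75. From the lists above, Hspa5 (the chaperone BiP), Mafg, the autophagy receptor Optn and the ephrin Efnb1 were called, at -0.65 ± 0.14, -0.50 ± 0.11, -0.47 ± 0.09 and 0.62 ± 0.13, and kept the call in 6, 3, 13 and 7 of the 16 fits; none of the 4 was called with total counts (edgeR adjusted p of 0.266 to 0.577). No crystallin, fiber membrane, glutathione, thioredoxin, proteasome or ribosomal gene of the lists was called against WT or LEGSKO by edgeR's quasi-likelihood test or by DESeq2, nor against WT without WT fiber library 1. With 0.276% and 0.0321% of all genes called by edgeR in the fit of all 24 libraries, a count of 0 among 229 genes is near the background of that fit. DESeq2 called 293 and 55 of all genes, and edgeR without WT fiber library 1 called 94 against WT. These are larger shares, and nothing is concluded from the 0 beside them. An unadjusted p below 0.05 was given by edgeR to 18 of the 229 (7.86%) against WT, to 28 (12.2%) without WT fiber library 1 and to 10 (4.37%) against LEGSKO, beside 13.6%, 14.6% and 10.6% of all genes. Against LEGSKO, the other named calls were Ctbp1, Lasp1 and Ube2e2, with differences of 0.48 ± 0.08, 0.51 ± 0.09 and 0.62 ± 0.11. Ctbp1, a transcriptional corepressor, kept its call whichever of the 16 libraries was left out. It lost the call with no filter, crystallin-free scaling, total counts and the replicate block (edgeR adjusted p = 0.0559, 0.059, 0.901 and 0.0751). Lasp1 and Ube2e2 kept theirs in 2 and 3 of the 16 fits and were called under none of these settings.

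**Figure D5:**
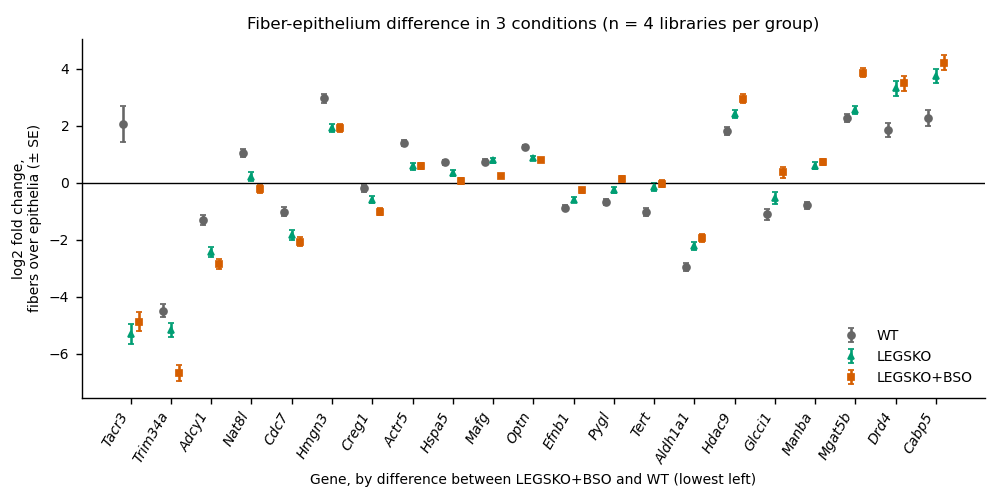
Each point is the log2 fold change of fibers over epithelia in 1 condition (circles WT, triangles LEGSKO, squares LEGSKO+BSO) with ± 1 SE, from 4 libraries per group and a fit of all 24 libraries; genes run from the lowest to the highest difference between LEGSKO+BSO and WT. Tacr3 lies above 0 in WT, where no library exceeded 0.665 CPM, and near -5 in both other conditions. Manba lies below 0 in WT and above 0 in both others under this TMM scaling (its LEGSKO+BSO value is -0.35 with total counts).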

How the data were processed

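RNA-seq measured total RNA of 24 mouse lens libraries, and the 8 LEGSKO+BSO libraries are described here. The authors deposited a table of read counts per gene, whole numbers that are not normalized. CASAVA 1.8, bcl2fastq, TopHat and DESeq are named, per the submitters' processing notes, together with mm10 and GRCm38. The counter, the annotation and whether counting used strand were not given in the sources used here, so reads of a gene and an overlapping or antisense gene, or of near copies, cannot be told apart.

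Of 24415 rows, 24334 matched a gene symbol by gene identifier; the other 81 held 0.914% of counts. Genes were kept with edgeR's filter (minimum count 10, minimum total 15), scaled by TMM, and tested with edgeR 4.0.16 (glmQLFit, glmQLFTest) in R 4.3.3 on the 8 libraries, with no covariate. Interactions used all 24 libraries. Depth was 19.3 to 46.6 M counts (1 M is 1e6) per library. Alternatives were DESeq2 1.42.0, other scalings, no filter, a replicate block, thinning to 19.3 M counts, and leaving out each library; total count scaling, crystallin-free scaling of the interactions, and the WT tissue difference without WT fiber library 1 were added after the data were seen. On simulated counts the tissue test recovered 61.2% of 1.5-fold, 79.1% of 2-fold and 97.0% of 4-fold changes among 14579 genes, and called 12 unchanged genes. The interaction test against WT recovered 32.8%, 68.7% and 92.4% among 15392 genes, and called 3. Only 67, 67 and 66 genes above a minimum mean count were changed at these folds, and no other gene had the tested difference. In the data most genes differed between tissues, so these rates do not give the power of the tissue test here. Noise was drawn for each gene on its own, without shifts shared by many genes of 1 library. The rates of the interaction test are therefore not its power in the data either.

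The members and the 40 gene lists were chosen with earlier results of these data known. Genes are named by rule: the 12 highest and 12 lowest differences (called, no overlap, mean of at least 10 CPM), members of 6 lens and glutathione lists, the 3 largest and the most abundant of each other list (mean of at least 5 CPM), the 8 highest and 8 lowest of each interaction (average log2 CPM of at least 1), and Gclc, Gclm and Gss; the text says where a gene falls outside it, and some genes within it are not reported here. The labels do not say whether equal replicate numbers mark a pair, so the main tests used no pairing. Same-number correlations of deviations were 0.07 to 0.17, and the highest other-number correlation was 0.02. A weak pairing is therefore possible, and the replicate block is given as an alternative. No 2 libraries agreed within sampling noise (chi-square per degree of freedom 5.43 to 73.1).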

Additional observations from a re-analysis of the deposited data

Results flagged for a closer look

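Of 124 groups of 4 libraries examined (55 genes with printed values and 7 summed shares of counts, in each tissue), 14 had 1 library far from the other 3. Chance gives about 1 group in 20 where groups are independent. These groups share libraries whose order many genes shared, so the 14 do not measure an excess over chance. In LEGSKO+BSO epithelia, library 2 lay high for Col18a1 (49.1 CPM), Crygc (243), Efemp1 (44.5), Fabp5 (302), Fbln1 (63.0), Ltbp2 (21.1) and Ndrg1 (116) and low for Col1a2 (38.3), and library 4 lay high for Col4a1 (11225). In LEGSKO+BSO fibers, library 4 lay high for Foxe3 (21.2 CPM), Gja1 (23.7) and Mki67 (1.59), and library 2 lay high for Cryaa (141002) and low for Abcc6 (133). Epithelial library 2 accounted for 8 of the 14.

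The tissue difference of LEGSKO+BSO differed from that of WT, by the interaction term, in 21 named genes. The log2 difference was -6.93 for Tacr3, -2.20 for Trim34a, -1.53 for Adcy1, -1.26 for Nat8l, -1.04 for Cdc7, -1.04 for Hmgn3, -0.82 for Creg1, -0.78 for Actr5, -0.65 for Hspa5, -0.50 for Mafg and -0.47 for Optn. It was 0.62 for Efnb1, 0.81 for Pygl, 0.99 for Tert, 1.03 for Aldh1a1, 1.15 for Hdac9, 1.47 for Glcci1, 1.50 for Manba, 1.59 for Mgat5b, 1.64 for Drd4 and 1.96 for Cabp5. Against untreated LEGSKO it was 0.48 for Ctbp1, 0.51 for Lasp1, 0.62 for Ube2e2 and 1.31 for Mgat5b.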

How the results depend on the processing

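Calls of the tissue comparison moved with the scaling. With crystallin-free library sizes and with total counts, 3417 and 2444 genes were higher and 9554 and 10902 lower (5860 and 6347 under TMM), and 1754 and 1224 were at least 2-fold higher and 6248 and 8025 at least 2-fold lower (3195 and 3529). DESeq2, DESeq2's size factors, no filter, thinning, the fit of all 24 libraries and the replicate block kept these 4 counts within 1.5 times; the replicate block gave 5837 higher and 6280 lower. Leaving out each library gave 5755 to 5980 higher, 6136 to 6345 lower, 3209 to 3407 at least 2-fold higher and 3492 to 3741 at least 2-fold lower. Every fiber library correlated best with the epithelial library of its own number, a hint from the data and not from the design.

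The log2 value of 22 named genes turned from above 0 to below 0, and not all of the turned values were called. Actr5, Ank2, Cdh2, Cryab, Fgfr3, Gsr, Pitx3 and Vim were not called with crystallin-free sizes. Gapdh, Gclc, Glrx5, Hsp90b1, Maf and Prox1 were not called with total counts. Under crystallin-free and total count scaling the log2 values were -0.11 and -0.47 for Actr5, -0.12 and -0.48 for Ank2, -0.01 and -0.37 for Cdh2, -0.07 and -0.42 for Cryab, -0.34 and -0.70 for Ctbp1, -0.47 and -0.83 for Dkk3, -0.20 and -0.56 for Fgfr2, -0.09 and -0.45 for Fgfr3, -0.10 and -0.46 for Gsr, -0.47 and -0.83 for Mafg, -0.16 and -0.51 for Pitx3, and -0.11 and -0.47 for Vim. Under total counts alone they were -0.15 for Gapdh, -0.13 for Gclc, -0.15 for Glrx5, -0.09 for Hsp90b1, -0.19 for Maf, -0.35 for Manba, -0.27 for Optn, -0.12 for Prox1, -0.33 for Sox2 and -0.24 for Srebf1.

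The 43 genes whose tissue difference differed from WT became 293 with DESeq2, 13 with total counts, 35 with the replicate block and 12 to 94 without 1 library. The 5 against LEGSKO became 55 with DESeq2, 2 with DESeq2's size factors, 1 with no filter, 1 with crystallin-free scaling, 0 with total counts, 0 with the replicate block and 1 to 8 without 1 library. The cause of these changes was not tested. Fiber residues under 1 CPM rest on few counts, and in simulation the interaction test recovered fewer changed genes than the tissue test.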
